A study of Mus musculus with 24 samples.

Results

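The carbonic anhydrases are the enzymes that interconvert carbon dioxide and bicarbonate. The 9 genes described here (Car2, Car3, Car4, Car5b, Car8, Car11, Car12, Car13 and Car14) were taken by symbol from the 19937 genes of a whole-transcript array table, and each is represented by 1 probe set. They were measured in the plantaris, a fast ankle extensor muscle of the mouse hindlimb, on 24 arrays in 4 groups of 6 mice aged 3 months. The groups were untreated wildtype, overloaded wildtype, untreated Mstn-/- and overloaded Mstn-/- mice, the latter genotype being a knockout of myostatin, a secreted protein that limits muscle growth. In the overloaded groups the neighbouring soleus and much of the gastrocnemius had been cut out on both sides under anaesthesia, and the muscle of 1 side was analysed. The untreated mice had no sham operation, so the surgery and the load cannot be told apart, and the sources used here give neither the duration of the overload nor the origin of the knockout line.

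Carbonic anhydrases differ mainly in where they sit in the cell. Membrane-bound members (Car4, Car12, Car14) face the outside of the cell, and in muscle Car4 is known from capillary endothelium and the sarcolemma and Car14 from the sarcolemma and sarcoplasmic reticulum. Car2, Car3 and Car13 encode cytosolic enzymes, Car5b a mitochondrial enzyme that supplies bicarbonate to carboxylases, and Car8 and Car11 encode related proteins that lack catalytic activity. In working muscle these enzymes act with lactate and bicarbonate transporters to move carbon dioxide and acid out of the fibre.

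Of the 9 genes, 8 passed the filter on low signal, which asked that the mean of at least 1 group lie above a log2 intensity of 6.63. Car12 did not pass. In all, 14499 genes were tested with limma, with a median standard error of 0.067 (log2) for a difference of group means, and array medians lay between 139 and 147 on the intensity scale. The number of arrays limits the precision. The arrays carried muscle RNA by its defining transcripts, since the mean log2 intensity of 8 skeletal muscle genes lay between 12.5 and 13.1 on every array. Mstn was 2.51-fold lower in untreated Mstn-/- than in untreated wildtype muscle (adjusted p = 2.72e-08), and the overloaded groups differed by 1.11-fold (adjusted p = 0.39), so Mstn separates the genotypes here only in untreated muscle. In what follows, ± after a level is the SD over the 6 arrays of a group, and ± after a difference is its standard error. Unless a permutation test is named, every adjusted p is limma's with Benjamini-Hochberg adjustment over all genes tested.

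The promoters of 3 members that fell together under overload are shown for their sequence context, as the 250 bases before the RefSeq start on GRCm38.p6. RefSeq promoter entries matched 5 of the 9 members. Capitals mark matches, on either strand, to the E-box CANNTG of myogenic factors, to ACGTG or GCGTG of hypoxia-inducible factors, to TATAAA, to CAGAC of SMAD proteins, the effectors of TGF-beta family signalling, or to the MEF2 site. An E-box match could also overlap an ACGTG match. Sequences run 5′ to 3′ on the strand of the gene.
Car14, chr3:95904686-95904935, minus strand: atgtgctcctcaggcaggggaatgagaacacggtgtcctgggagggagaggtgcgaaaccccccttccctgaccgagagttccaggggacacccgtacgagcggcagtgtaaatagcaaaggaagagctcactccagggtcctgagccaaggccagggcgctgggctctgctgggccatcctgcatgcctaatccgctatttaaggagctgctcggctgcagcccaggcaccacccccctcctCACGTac
Car4, chr11:84957504-84957753, plus strand: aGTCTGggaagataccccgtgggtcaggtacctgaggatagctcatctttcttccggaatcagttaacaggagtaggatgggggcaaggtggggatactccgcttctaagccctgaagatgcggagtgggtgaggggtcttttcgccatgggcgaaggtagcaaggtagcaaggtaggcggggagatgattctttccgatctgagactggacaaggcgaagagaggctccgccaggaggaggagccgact
Car11, chr7:45699554-45699803, plus strand, first of its listed starts: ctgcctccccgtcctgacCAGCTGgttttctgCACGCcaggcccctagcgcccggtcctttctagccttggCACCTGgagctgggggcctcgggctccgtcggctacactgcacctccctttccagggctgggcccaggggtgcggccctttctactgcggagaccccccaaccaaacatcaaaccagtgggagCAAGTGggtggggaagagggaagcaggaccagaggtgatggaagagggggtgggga

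The matches differed between these promoters. Car14 held 1 ACGTG on the reverse strand, 7 bases before its start, and no other motif searched. Car4 held 1 CAGAC on the reverse strand, 249 bases before its start. Car11 held 3 E-boxes, the nearest 56 bases before the start, and 1 GCGTG at 218. Of 32851 mouse promoters of the same length, 66.2% held an E-box, 16.6% ACGTG, 28.2% GCGTG, 12.4% TATAAA, 42.2% CAGAC and 2.92% a MEF2 match. A match is a description of the letters and not of a bound factor.

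Overload against no overload in wildtype muscle asks how the operated, loaded muscle differs in mice of the wildtype genotype. Car14, Car4, Car2, Car8 and Car11 were lower after overload, Car13 was higher, and Car3 and Car5b did not pass the test. Thus 6 of the 8 tested members were called, 1 higher and 5 lower, where 65.9% of all tested genes were called, 30.3% higher and 35.6% lower, so the share called was near that of all genes. The median change of the 8 was -0.79 on the log2 scale (1.73-fold lower), against -0.056 over all tested genes. The same 6 genes also had groups that did not overlap, which held for 21.8% of all tested genes in the upward and 21.1% in the downward direction. In Mstn-/- muscle the response had the same sign for each of these 6 genes, with a median change over the 8 of -0.32 (1.25-fold lower) against -0.063 over all genes, and again 6 were called, 1 higher and 5 lower, where 60.6% of all genes were called, 27.1% higher and 33.5% lower. Those 6 did not overlap between treatments in Mstn-/- muscle either, against 19.8% of all genes in the upward and 20.1% in the downward direction.

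**Figure D1:**
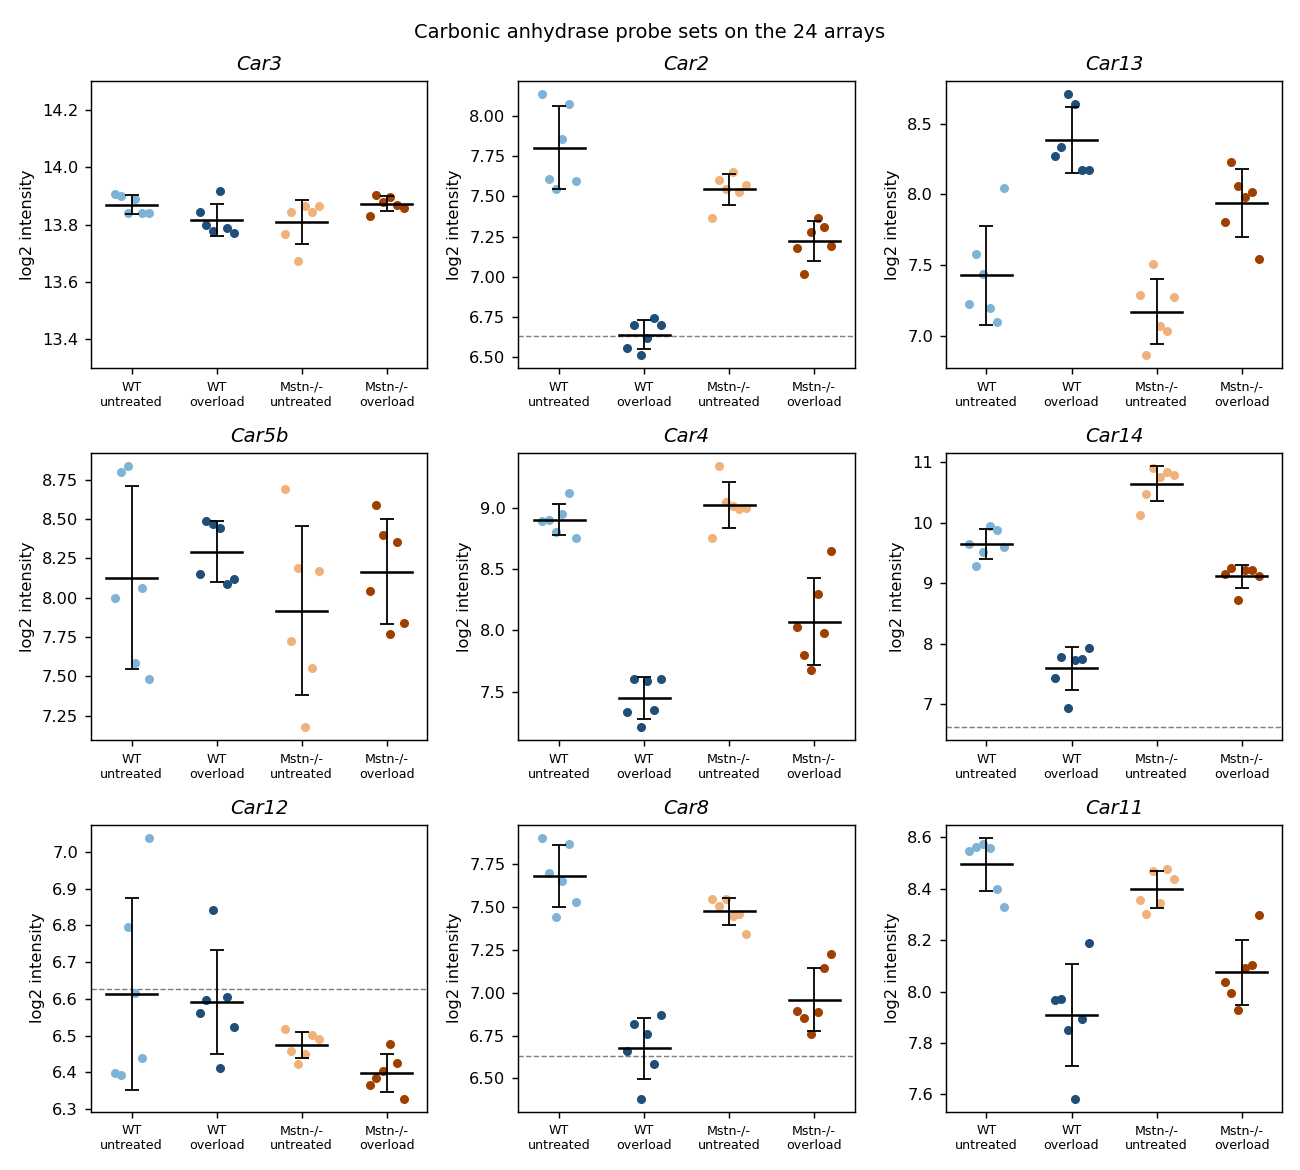
Log2 intensity of the 9 carbonic anhydrase probe sets on each of the 24 arrays (y axis, scaled per gene), by group (x axis). Each point is 1 array, bars are the group mean ± SD of 6 arrays, and the dashed line, where it falls within the axis, is the filter level of 6.63. Car14 separates all 4 groups, while Car3 stays between 13.67 and 13.92 on every array.

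Car14, the transmembrane enzyme of the sarcolemma and sarcoplasmic reticulum, moved most. In untreated wildtype muscle its lowest, median and highest log2 intensities were 9.28, 9.63 and 9.94 (mean 9.64 ± 0.25), and after overload they were 6.94, 7.74 and 7.93 (7.59 ± 0.36). In untreated Mstn-/- muscle they were 10.12, 10.77 and 10.90 (10.64 ± 0.29), and after overload 8.72, 9.18 and 9.26 (9.11 ± 0.20). Every untreated array was therefore above every overloaded array of its genotype, and every Mstn-/- array above every wildtype array of the same treatment. The order of the groups was untreated Mstn-/-, untreated wildtype, overloaded Mstn-/-, overloaded wildtype, and the closest neighbours, untreated wildtype and overloaded Mstn-/-, were separated only by the gap between 9.28 and 9.26.

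Overload lowered Car14 by 4.14-fold in wildtype (log2 -2.05 ± 0.15, adjusted p = 4.1e-12). In Mstn-/- muscle the fall was 2.89-fold (-1.53 ± 0.15, adjusted p = 1.88e-09). The difference between these responses, 0.52 ± 0.21, did not pass (adjusted p = 0.0873), with a 95% interval from 0.092 to 0.94. Without myostatin Car14 was 2.00-fold higher in untreated muscle (1.00 ± 0.15, adjusted p = 1.74e-05) and 2.86-fold higher in overloaded muscle (1.52 ± 0.15, adjusted p = 2.73e-08). Car14 was the only member whose groups were apart in each of these 4 comparisons.

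Car4 encodes the lipid-anchored enzyme of the capillary and muscle cell surface. Its lowest, median and highest values were 8.75, 8.90 and 9.12 in untreated wildtype muscle (mean 8.90 ± 0.13) and 7.21, 7.47 and 7.60 after overload (7.45 ± 0.17). Those of Mstn-/- muscle were 8.76, 9.0 and 9.34 untreated (9.02 ± 0.19) and 7.67, 8.0 and 8.65 after overload (8.07 ± 0.35). The untreated genotypes overlapped, whereas every overloaded Mstn-/- array was above every overloaded wildtype array. Overload lowered Car4 by 2.74-fold in wildtype (-1.45 ± 0.12, adjusted p = 5.61e-11). Without myostatin it fell by 1.94-fold (-0.95 ± 0.12, adjusted p = 1.78e-07). The responses differed by 0.50 ± 0.17 (adjusted p = 0.042), a call that is lost when no filter on low signal is set (adjusted p = 0.0559). Between genotypes Car4 did not pass in untreated muscle (0.12 ± 0.12, adjusted p = 0.524) and was 1.54-fold higher without myostatin after overload (0.62 ± 0.12, adjusted p = 0.000212).

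Because Car4 is known from capillaries, it was set against 12 endothelial markers on the same arrays. These markers went the other way under overload, with 10 higher and 1 lower in each genotype, and among them Pecam1, an endothelial adhesion molecule, rose 1.67-fold in wildtype. The mean log2 of the 12 markers was 9.52 in untreated and 9.80 in overloaded wildtype muscle, and 9.34 and 9.81 in Mstn-/- muscle. The within-array difference of Car4 from that mean fell from -0.62 ± 0.066 to -2.35 ± 0.092 in wildtype and from -0.31 ± 0.19 to -1.74 ± 0.38 in Mstn-/- muscle (SD, n = 6 arrays per group). The changes of -1.74 and -1.43 each had p = 0.00216 by a two-sided exact permutation test, the smallest that 6 against 6 arrays allow (adjusted p = 0.00247 over 8 such tests). Relative to the markers Car4 was higher without myostatin, beside 7 of the 12 markers lower and 1 higher in untreated and 2 lower and 1 higher in overloaded muscle. The within-array difference was higher by 0.30 in untreated (exact permutation p = 0.013, adjusted p = 0.013) and by 0.61 in overloaded muscle (exact permutation p = 0.00216, adjusted p = 0.00247). In a bulk sample fewer cells of a type and less RNA per cell cannot be told apart.

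**Figure D2:**
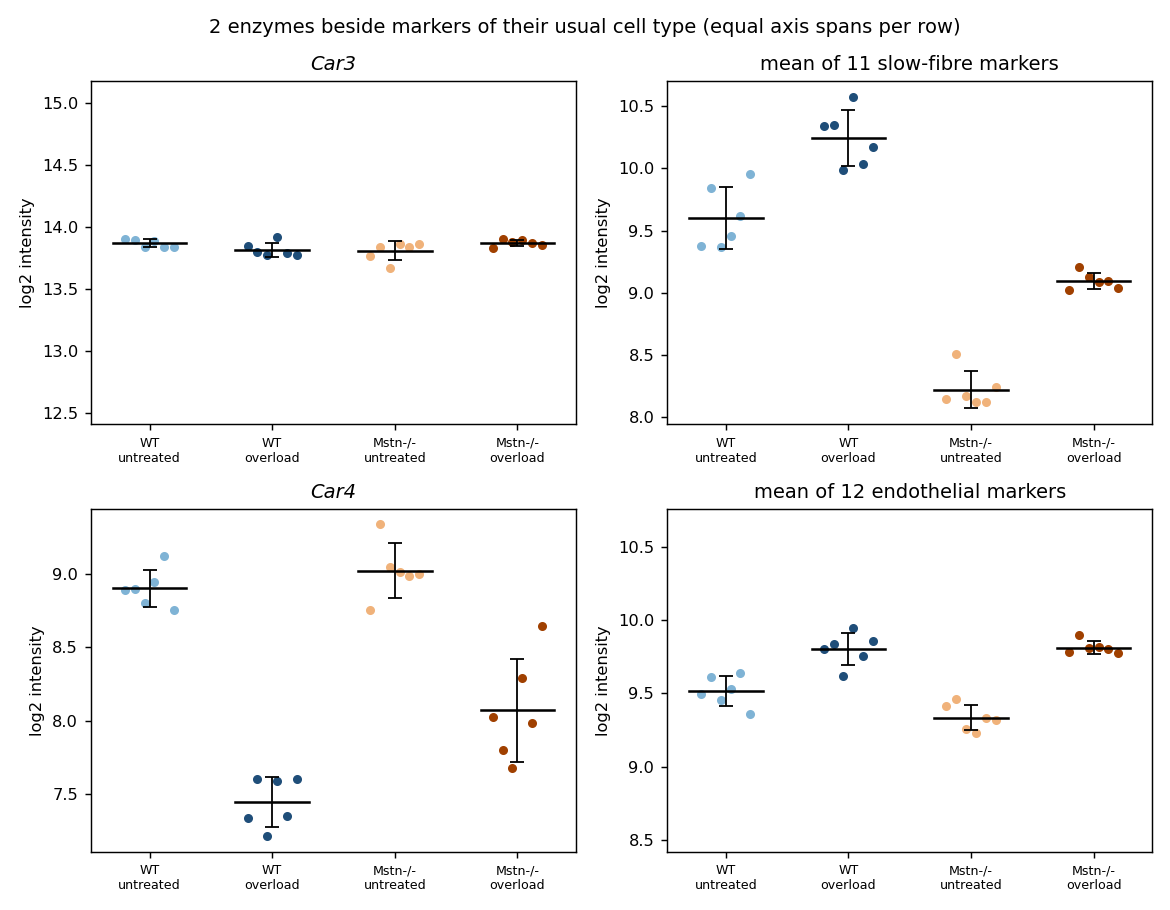
Log2 intensity of Car3 and of the mean of 11 slow-fibre markers (top), and of Car4 and of the mean of 12 endothelial markers (bottom), on each of the 24 arrays by group. Points are arrays, bars are mean ± SD of 6 arrays, and both y axes of a row span the same range. The Car3 signal, near the top of the scale, stays between 13.67 and 13.92 while the slow-fibre mean runs from 8.22 to 10.25 between groups, and Car4 falls under overload while the endothelial mean rises.

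Car12, the remaining membrane-bound member, encodes an enzyme best known from kidney and other epithelia. Its group means were 6.61 ± 0.26 in untreated wildtype, 6.59 ± 0.14 in overloaded wildtype, 6.47 ± 0.036 in untreated Mstn-/- and 6.40 ± 0.052 in overloaded Mstn-/- muscle. All lay below the filter level and no test was made. The highest single array, at 7.04, was an untreated wildtype array, and the wildtype groups overlapped each other throughout.

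Car2, the fast cytosolic enzyme found in many tissues, responded more strongly to overload in wildtype than in Mstn-/- muscle. Its lowest, median and highest values were 7.54, 7.73 and 8.14 in untreated wildtype (mean 7.80 ± 0.26) and 6.51, 6.66 and 6.74 after overload (6.64 ± 0.090). The Mstn-/- values were 7.37, 7.56 and 7.65 untreated (7.54 ± 0.097) and 7.01, 7.23 and 7.36 after overload (7.22 ± 0.12). The overloaded wildtype arrays were the lowest of all, and they lay around the filter level, so the size of folds against them is uncertain. The fall was 2.24-fold in wildtype (-1.17 ± 0.086, adjusted p = 8.12e-12), compared with 1.25-fold in Mstn-/- muscle (-0.32 ± 0.086, adjusted p = 0.00246).

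The responses of Car2 differed by 0.84 ± 0.12 (1.80-fold, adjusted p = 3.67e-05), the largest such difference among the 8 members. Without myostatin Car2 was 1.20-fold lower in untreated muscle (-0.26 ± 0.086, adjusted p = 0.0328), where the groups overlapped and the call is lost under 3 of the alternative settings (adjusted p between 0.0586 and 0.0706). After overload the order turned, and Car2 was 1.5-fold higher in Mstn-/- than in wildtype muscle (0.58 ± 0.086, adjusted p = 9.17e-06) with no overlap.

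Car3 encodes the abundant cytosolic enzyme of low hydratase activity that marks slow fibres in human and rat muscle. Its lowest, median and highest values were 13.84, 13.87 and 13.91 in untreated wildtype (mean 13.87 ± 0.032) and 13.77, 13.79 and 13.92 after overload (13.82 ± 0.056). Those of Mstn-/- muscle were 13.67, 13.84 and 13.87 untreated (13.81 ± 0.076) and 13.83, 13.87 and 13.90 after overload (13.87 ± 0.027). All 4 groups overlapped. The change under overload was -0.05 ± 0.040 in wildtype (adjusted p = 0.241, 95% interval from -0.14 to 0.029) and 0.06 ± 0.040 in Mstn-/- muscle (adjusted p = 0.174, interval from -0.019 to 0.15).

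Between genotypes Car3 differed by -0.06 in untreated (adjusted p = 0.317) and 0.06 in overloaded muscle (adjusted p = 0.285), and the responses by 0.12 ± 0.057 (adjusted p = 0.168). After a shift of all arrays to 1 median, the wildtype change under overload was -0.12 and passed (adjusted p = 0.0153). The highest log2 value of any probe set on any array was 14.26, so Car3 lay near the top of the scale, and whether its signal there was still proportional to its RNA was not tested.

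The 11 slow-fibre markers, by contrast, moved strongly. Under overload 7 were higher and 3 lower in wildtype, 6 were higher and 2 lower in Mstn-/- muscle, and without myostatin 10 were lower and none higher in either treatment. Myl2, the slow regulatory light chain of myosin, was 6.58-fold lower in untreated Mstn-/- than in untreated wildtype muscle (adjusted p = 7.58e-10). The within-array difference of Car3 from the mean of these markers was 4.27 ± 0.26 in untreated and 3.57 ± 0.18 in overloaded wildtype muscle, and 5.59 ± 0.15 and 4.78 ± 0.047 in untreated and overloaded Mstn-/- muscle (SD, n = 6). It fell by 0.70 and 0.81 under overload in the 2 genotypes and was 1.33 and 1.21 higher without myostatin in untreated and overloaded muscle. Each of these 4 differences had p = 0.00216 by the two-sided exact permutation test (adjusted p = 0.00247). These differences follow the movement of the marker mean beside a Car3 signal near the top of the scale. Their p-values therefore tell of the markers and not of a change in Car3.

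Car13, a cytosolic enzyme of broad tissue distribution, was the only member called higher under overload. Its lowest, median and highest values were 7.09, 7.33 and 8.04 in untreated wildtype (mean 7.43 ± 0.35) and 8.17, 8.30 and 8.71 after overload (8.38 ± 0.23). The Mstn-/- values were 6.86, 7.17 and 7.51 untreated (7.17 ± 0.23) and 7.54, 8.0 and 8.23 after overload (7.94 ± 0.24). Overloaded arrays were above untreated arrays in both genotypes, and the genotypes overlapped at each treatment. The rise was 1.94-fold in wildtype (0.96 ± 0.14, adjusted p = 1.23e-06), compared with 1.70-fold in Mstn-/- muscle (0.77 ± 0.14, adjusted p = 3.98e-05). The responses differed by -0.19 ± 0.20 (adjusted p = 0.589). In overloaded muscle Car13 was 1.36-fold lower without myostatin (-0.44 ± 0.14, adjusted p = 0.0146), and in untreated muscle the difference was -0.26 ± 0.14 (adjusted p = 0.208).

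Car13, Car1, Car3 and Car2 follow each other in this order on chromosome 3, with only pseudogenes and a long noncoding RNA listed between them in RefSeq. These neighbours did not move together. Under overload in wildtype muscle Car13 rose, Car1 and Car2 fell and Car3 did not pass the test.

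Car5b, the mitochondrial member, varied widely between mice of the same group. Its lowest, median and highest values were 7.48, 8.03 and 8.84 in untreated wildtype (mean 8.13 ± 0.58) and 8.09, 8.30 and 8.49 after overload (8.29 ± 0.19). Those of Mstn-/- muscle were 7.18, 7.95 and 8.69 untreated (7.92 ± 0.54) and 7.77, 8.20 and 8.59 after overload (8.17 ± 0.33). All groups overlapped and nothing passed the test. The change under overload was 0.16 ± 0.23 in wildtype (adjusted p = 0.53, 95% interval from -0.30 to 0.63) and 0.25 ± 0.23 in Mstn-/- muscle (adjusted p = 0.345). The genotypes differed by -0.21 in untreated (adjusted p = 0.566) and -0.13 in overloaded muscle (adjusted p = 0.698).

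The relation of Car5b to the mean level of 8 adipocyte markers was looked at within each group after the values were seen. The pair was chosen with the values of these same arrays known. The adjustment covers the 4 groups and not the other genes and marker lists that could have been chosen. The p-values of this relation are therefore given as a description, and no call is drawn from them. Pearson's r and Spearman's rho were both highest in untreated Mstn-/- muscle. Across the 6 untreated Mstn-/- arrays Pearson's r was 0.984 (exact permutation p = 0.00556, adjusted over the 4 groups 0.0222) and Spearman's rho 0.943 (p = 0.0167, adjusted 0.0667), and r was 0.964 without the 2 arrays farthest from the median marker level. In overloaded Mstn-/- muscle r was 0.872 (exact permutation p = 0.0306, adjusted 0.0593) and rho 0.886 (p = 0.0333, adjusted 0.0667), with r = 0.701 without those 2 arrays. In untreated wildtype muscle r was 0.897 (exact permutation p = 0.0444, adjusted 0.0593) and rho 0.714 (p = 0.136, adjusted 0.175), but r was 0.065 without the 2 farthest arrays, so the relation there rests on them. In overloaded wildtype muscle r was 0.619 (exact permutation p = 0.182, adjusted 0.182) and rho 0.657 (p = 0.175, adjusted 0.175), with r = 0.159 without the 2 farthest.

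The summed intensity of the 8 adipocyte markers ran from 3552 to 6860 in untreated wildtype, 3295 to 4425 in overloaded wildtype, 2431 to 4925 in untreated Mstn-/- and 3330 to 5366 in overloaded Mstn-/- muscle. No marker was listed at 0. Of the 8, 3 were lower and none higher under overload in wildtype, 1 was higher and 1 lower in Mstn-/- muscle, and 2 were lower without myostatin in untreated muscle. With the mean of these markers as a covariate, Car5b was higher under overload in wildtype (0.67 ± 0.12, adjusted p = 1.41e-05) and in Mstn-/- muscle (0.27 ± 0.10, adjusted p = 0.0251). The difference between untreated genotypes then changed sign to 0.35 ± 0.12 (adjusted p = 0.0425). The calls on Car5b therefore depend on whether the adipocyte signal enters the fit. That fit used 1 slope for all 4 groups. The marker mean itself was 8.67 in untreated and 8.24 in overloaded wildtype muscle, and 8.20 and 8.18 in Mstn-/- muscle. The values with the covariate thus rest in part on the shared slope.

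**Figure D3:**
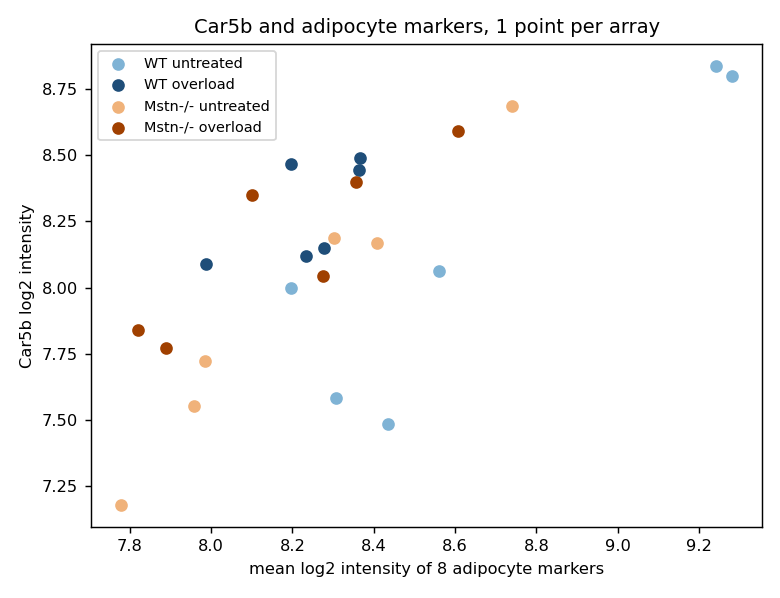
Car5b log2 intensity (y axis) against the mean log2 intensity of 8 adipocyte markers (x axis), 1 point per array, coloured by group. The 2 untreated wildtype arrays with the highest marker level also have high Car5b, and the 6 untreated Mstn-/- arrays rise from 7.18 to 8.69 in Car5b along the marker axis.

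Car8 and Car11 encode the family's acatalytic proteins, of which the Car8 product is known to bind the inositol trisphosphate receptor. The lowest, median and highest values of Car8 were 7.44, 7.67 and 7.90 in untreated wildtype (mean 7.68 ± 0.18) and 6.38, 6.71 and 6.87 after overload (6.68 ± 0.18). The Mstn-/- values were 7.34, 7.48 and 7.54 untreated (7.47 ± 0.077) and 6.76, 6.89 and 7.23 after overload (6.96 ± 0.18). The untreated groups were above the overloaded groups without overlap, and the overloaded wildtype arrays lay around the filter level, so the size of that fall is uncertain. It was 2.00-fold in wildtype (-1.0 ± 0.088, adjusted p = 1.76e-10), compared with 1.43-fold in Mstn-/- muscle (-0.51 ± 0.088, adjusted p = 1.73e-05). The responses differed by 0.49 ± 0.12 (adjusted p = 0.00718). Car8 was 1.22-fold higher without myostatin after overload (0.28 ± 0.088, adjusted p = 0.0135), with overlapping arrays, and did not pass in untreated muscle (-0.21 ± 0.088, adjusted p = 0.0959), where array weights bring it past the threshold (adjusted p = 0.0396).

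Car11 showed the smallest of the 5 falls in wildtype muscle. Its lowest, median and highest values were 8.33, 8.55 and 8.57 in untreated wildtype (mean 8.49 ± 0.10) and 7.58, 7.93 and 8.19 after overload (7.91 ± 0.20). Those of Mstn-/- muscle were 8.30, 8.40 and 8.47 untreated (8.40 ± 0.073) and 7.93, 8.06 and 8.30 after overload (8.07 ± 0.13). The treatments were apart in each genotype, though only narrowly in Mstn-/- muscle. The fall was 1.5-fold in wildtype (-0.59 ± 0.075, adjusted p = 1.26e-07), compared with 1.25-fold in Mstn-/- muscle (-0.32 ± 0.075, adjusted p = 0.000605). The responses differed by 0.26 ± 0.11 (adjusted p = 0.0873), and the genotypes by -0.10 in untreated (adjusted p = 0.393) and 0.17 in overloaded muscle (adjusted p = 0.0832). The last value passed after the shift to 1 median (0.19, adjusted p = 0.0483).

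Mstn-/- against wildtype asks how the muscle differs between the genotypes at each treatment. In untreated muscle 2 of the 8 tested members were called, Car14 higher and Car2 lower, where 21.3% of all genes were called, 11.1% higher and 10.2% lower, again a share near that of all genes. The median difference of the 8 was -0.15, against -0.013 over all genes. Only Car14 did not overlap between the untreated genotypes, against 6.53% of all genes in the upward and 5.47% in the downward direction. After overload 5 were called, with Car2, Car4, Car8 and Car14 higher and Car13 lower, where 36.5% of all genes were called, 17.5% higher and 19% lower. The median there was 0.22, against -0.030, and Car2, Car4 and Car14 did not overlap, against 7.06% of all genes upward and 8.46% downward. The response to overload differed between the genotypes for Car2, Car4 and Car8, 3 of the 8, where 17.4% of all genes were called, 8.92% with a higher and 8.44% with a lower value in Mstn-/- muscle. In each of these 3 genes the fall was smaller without myostatin. The comparisons share arrays, so their values are not independent of each other.

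**Figure D4:**
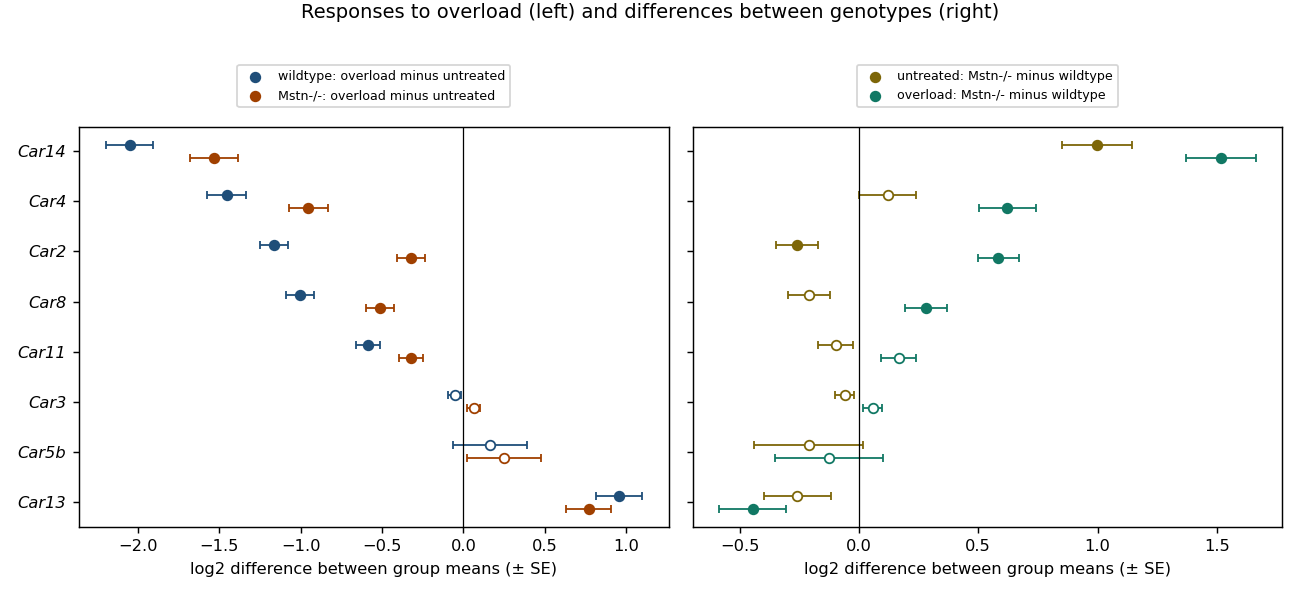
Log2 differences between group means ± SE for the 8 tested carbonic anhydrases, with the overload responses of each genotype on the left and the genotype differences at each treatment on the right (x axes). Filled points passed limma's adjusted p of 0.05 and open points did not. Car14 to Car11 lie left of 0 under overload in both genotypes, with the wildtype value the lower in each, and Car14 is the only member well to the right of 0 in untreated muscle.

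Cell types other than muscle fibres also moved with the treatment. All 10 macrophage markers were higher under overload in both genotypes, with summed intensities of 2388 to 3195 in untreated wildtype, 12288 to 18817 in overloaded wildtype, 3520 to 4483 in untreated Mstn-/- and 8319 to 16373 in overloaded Mstn-/- muscle. Of the 8 skeletal muscle genes, 5 were lower and 1 higher under overload in wildtype (median -0.18 on the log2 scale), and 4 were lower and 1 higher in Mstn-/- muscle (median -0.11). Among those lower in wildtype, Tcap, a protein of the sarcomere's Z-disc, and Ckmt2, the mitochondrial creatine kinase, had the smallest adjusted p. They fell 2.02-fold and 1.96-fold, while Des was 1.08-fold higher (adjusted p = 0.0369). The fast-fibre list, of 11 genes, had 7 lower in wildtype and 5 lower and 1 higher in Mstn-/- muscle under overload, and 8 higher without myostatin in overloaded muscle. The part of such changes in cell and fibre makeup in the values of the carbonic anhydrases was not tested.

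Car2 is also a marker of osteoclasts and Car1 and Car2 of red cells, so both were looked at through other genes of those cells. Of 6 osteoclast genes tested, 3 were higher and 2 lower under overload in wildtype and 4 were higher in Mstn-/- muscle. In wildtype, where Car2 fell, the protease gene Ctsk rose 8.27-fold. The 2 lower there were Oscar (1.16-fold, adjusted p = 0.00673) and Ocstamp (1.16-fold, adjusted p = 0.00973). Only 2 of the 9 listed erythroid genes were tested. Neither passed in the comparisons of overload with no overload. Alas2, which encodes the erythroid enzyme of haem synthesis, was 1.78-fold higher without myostatin in untreated muscle (adjusted p = 0.0292), where Car2 was lower. It was 1.89-fold higher without myostatin in overloaded muscle (adjusted p = 0.00949), where Car2 was 1.5-fold higher. The part of red cells or osteoclasts in the Car2 signal was not tested. Of 8 genes of fibro-adipogenic progenitors, 6 were higher and 1 lower under overload in wildtype and 5 higher and 1 lower in Mstn-/- muscle. The counts were 6 higher and 1 lower, and 6 higher, for 7 tendon genes, and 1 lower and none called, for 4 Schwann cell genes.

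The array also carried 7 other carbonic anhydrases. Car6 and Car10 did not pass the filter, and 5 did (Car1, Car5a, Car7, Car9 and Car15). Of these, Car1, Car5a, Car7 and Car15 were called lower under overload in both genotypes. Among all tested genes 35.6% were called lower in wildtype and 33.5% in Mstn-/- muscle. Car9 is not counted with them, for the reason given below. At least 1 group mean of Car1, Car5a and Car9 lay below the filter level, so the sizes of their changes are uncertain. Car1, the red cell and colon enzyme, with a mean of 6.61 in overloaded wildtype muscle, fell 1.87-fold in wildtype (-0.91 ± 0.081, adjusted p = 2.42e-10), compared with 1.59-fold in Mstn-/- muscle (-0.67 ± 0.081, adjusted p = 8.61e-08). Car9, the transmembrane enzyme known as a hypoxia target, had its highest values in untreated Mstn-/- muscle. Its mean was 6.57 ± 0.13 in untreated and 6.28 ± 0.14 in overloaded wildtype muscle, and 7.44 ± 0.32 and 6.37 ± 0.093 in untreated and overloaded Mstn-/- muscle. It was thus above the filter level in the untreated Mstn-/- group alone, the group through which it passed the filter. Its values are given as a description, and no result is drawn from its differences or tests.

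The transporters and enzymes that work beside carbonic anhydrases in handling acid, lactate, bicarbonate and carbon dioxide were listed as 24 genes, of which 19 were tested. Under overload 5 were higher and 12 lower in wildtype, with a median of -0.36, and 5 were higher and 10 lower in Mstn-/- muscle, with a median of -0.16. In wildtype muscle Emb, which encodes embigin, a partner of monocarboxylate transporters, rose 7.60-fold (adjusted p = 2.53e-12), and Slc9a9, an endosomal sodium-proton exchanger, rose 3.33-fold (adjusted p = 6.8e-14). Aqp4, the water channel of the fast-fibre membrane, fell 3.75-fold (adjusted p = 1.02e-13) and Slc16a10, an amino acid carrier of the monocarboxylate family, fell 2.61-fold (adjusted p = 2.57e-14). In Mstn-/- muscle Slc16a3, the lactate exporter of glycolytic fibres, was 2.19-fold lower after overload (adjusted p = 1.55e-10).

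Between genotypes the partner list had 2 higher and 3 lower in untreated muscle. Slc16a3 was 1.85-fold higher without myostatin (adjusted p = 1.5e-07), as was Car14 among the carbonic anhydrases. Aqp4 was 1.89-fold lower (adjusted p = 1.06e-06), and Ldhb, the lactate dehydrogenase subunit of oxidative fibres, was 2.15-fold lower (adjusted p = 1.33e-05). After overload 7 were higher and 2 lower. The response differed for 7 of the 19, with 5 higher and 2 lower in Mstn-/- muscle. Aqp4 was among the former (1.56 ± 0.16, adjusted p = 4.13e-07). So was Slc4a4, a sodium-bicarbonate cotransporter (0.59 ± 0.14, adjusted p = 0.0046), with a fall of 2.88-fold in wildtype and 1.92-fold in Mstn-/- muscle.

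Of 14 hypoxia-induced genes, 1 was higher and 8 were lower under overload in each genotype, with medians of -0.40 in wildtype and -0.33 in Mstn-/- muscle. Among all tested genes 30.3% were called higher and 35.6% lower in wildtype, and 27.1% and 33.5% in Mstn-/- muscle. Pfkfb3, which encodes a regulator of glycolysis, fell 4.92-fold and Vegfa, an angiogenic growth factor, 1.79-fold in wildtype muscle (adjusted p = 3.93e-12 for Pfkfb3 and 4.43e-10 for Vegfa). In untreated muscle 2 were higher and 3 lower without myostatin, where 11.1% of all genes were called higher and 10.2% lower. Ddit4 was 1.81-fold (adjusted p = 0.00544) and Pgk1 1.21-fold higher (adjusted p = 0.0163). Vegfa was 1.51-fold (adjusted p = 2.88e-06) and Pdk1 1.23-fold lower (adjusted p = 0.00645).

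For the 5 members whose group means spanned at least 1 on the log2 scale, the genes with the most similar course over the 24 arrays were ranked by the root mean square (RMS) difference of their centred log2 values. For Car14, whose own RMS deviation from its mean was 1.13, the nearest were Gpt2, a mitochondrial alanine aminotransferase (0.31), Dhrs7c, a dehydrogenase of the sarcoplasmic reticulum (0.36), and Adhfe1, a mitochondrial alcohol dehydrogenase family member (0.38). For Car4 (own deviation 0.67) they were Bckdhb, a subunit of the branched-chain ketoacid dehydrogenase (0.16), Dhdh (0.17) and Gstm3 (0.17). Gpt2 was at 10.52 and 10.98 in untreated wildtype and Mstn-/- muscle, a smaller gap than that of Car14.

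For Car2 (own deviation 0.46) the nearest were Thrb, a thyroid hormone receptor (0.16), Cd59b (0.16) and Rnf128, a ubiquitin ligase (0.16). For Car8 (own deviation 0.43) they were Suclg2, a succinyl-CoA ligase subunit (0.098), Exoc6, of the exocyst (0.10), and Rnls (0.11). For Car13 (own deviation 0.53) they were Gltp, a glycolipid transfer protein (0.16), Ahnak2 (0.19) and Atpif1, an inhibitor of the mitochondrial ATP synthase (0.20). None of these nearest genes was a carbonic anhydrase.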

How the data were processed

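Affymetrix whole-transcript arrays were hybridised with plantaris RNA from which ribosomal RNA had been removed, per the labels' protocols. Per the submitters' processing notes, the deposited intensity values come from RMA, of unstated version, which corrects background, normalizes across arrays and summarises each probe set. Their range, 4.72 to 25588.9, shows a linear scale. The tests had been planned for log2 values, and log2 was taken here without a pseudocount.

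Of 34760 probe sets the 21640 with 1 gene symbol were used (1321 had several symbols and 11799 none), and for each gene the probe set with the highest mean. Of 19937 genes 19855 matched a RefSeq table (GRCm38.p6) used for names, gene order and promoter sequences. The array annotation names no build. A gene was tested if a group mean exceeded the 30th percentile of these probe sets (log2 6.63).

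Limma 3.58.1 in R 4.3.3 fitted 1 mean per group to all 24 arrays (20 residual degrees of freedom), with eBayes and a Benjamini-Hochberg threshold of 0.05 over 14499 genes. Fold changes are ratios of geometric means. Within-array differences used exact permutation tests. Fit and tests were tested on simulated data. Alternatives were another quantile normalization, a shift to the same array median, the mean over a gene's probe sets, no or a stricter filter, array weights, a trended and robust variance, replicate number as a block, a fit to the groups compared only, the median in place of the mean of a marker list, and, added after seeing the data, the adipocyte marker mean as a covariate.

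Members, gene lists and the rule for named genes (the members, the other carbonic anhydrases, up to 4 genes per list with the smallest adjusted p, and the 3 genes closest in course to each member spanning at least 1 on the log2 scale) were chosen with earlier results of these data known. Car5b and the adipocyte markers, and Slc4a4, were set out after their values were seen. The labels call the arrays of a group biological replicates.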

Additional observations from a re-analysis of the deposited data

Results flagged for a closer look

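Among 64 groups of 6 arrays of the 16 carbonic anhydrase genes, 2 held an array far from the others, where chance gives about 1 in 20. In overloaded Mstn-/- muscle 1 array had a Car14 log2 intensity of 8.7207, against 9.1107 for the next lowest. In untreated wildtype muscle 1 array had a Car6 log2 intensity of 6.2177, against 5.8526 for the next highest, both below the filter level of 6.63.

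The response to overload differed between the genotypes for Car2, Car4 and Car8 by limma's test of the difference itself. The value in Mstn-/- minus that in wildtype muscle was 0.8443 on the log2 scale for Car2, 0.4996 for Car4 and 0.4895 for Car8, each a smaller fall without myostatin. The call on Car4 (adjusted p = 0.042) is lost when no filter on low signal is set. The value for Car9, -0.7855, is not counted with them, because Car9 passed the filter through untreated Mstn-/- muscle alone and its other 3 group means lie below the filter level. The overloaded wildtype means of Car2 and Car8 (6.64 and 6.68) lie near that level, so the sizes of their differences are uncertain.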

How the results depend on the processing

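The calls on Car13 and on the 5 members lower under overload kept their direction and side of the threshold in both overload comparisons under every alternative run. In the untreated genotype comparison 1.0 member was called in place of 2 after another quantile normalization, after the shift to the same array median and in a fit to the groups compared only. Car2 was the call lost (adjusted p = 0.0586, 0.0666 and 0.0706 in that order), and the cause was not tested. For the difference in response 2 members were called in place of 3 when no filter was set, and Car4 was the call lost. With the adipocyte marker mean as a covariate, added after seeing the data, 3 values changed sign. They were Car4 (-0.013706) and Car5b (0.35) between untreated genotypes and Car5b for the difference in response (-0.40). That covariate also brought the response difference of Car14 past the threshold (0.65, adjusted p = 0.0272). Over the values of single members under all alternatives, 379 kept direction and call, 6 became calls, 4 lost them and 3 changed sign. The shift to the same median moved the split of all called genes from 3932 higher and 4857 lower to 3295 and 6767 for overload in Mstn-/- muscle, and from 1616 and 1475 to 1859 and 1100 for the untreated genotypes. The main tests did not pair arrays by replicate number. Correlations of deviations over 36 same-number pairs ran from -0.41 to 0.36 (median 0.022), which does not settle whether arrays of the same number were handled together. With the replicate block the members called stayed at 6, 6, 2, 5 and 3 in the 5 comparisons, 9512 genes were called for overload in wildtype, and the difference of Car4 from the endothelial mean between untreated genotypes (0.30) no longer passed (exact permutation, adjusted p = 0.0625). Leaving out single arrays was not among the alternatives. Low signal limits Car12 throughout and Car1, Car2 and Car8 in overloaded wildtype muscle, and all groups of Car9 but untreated Mstn-/- muscle.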
